A study of Mus musculus with 6 samples.

Results

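Organic ion and drug transporters carry endogenous acids and bases, urate, carnitine, conjugated hormones and medicines across cell membranes. The genes described here are the mouse members of the Slc22a, Slco, Slc47a, Abcb and Abcc families together with Abcg2, Slc17a1 and Slc17a3. The rule for choosing them used gene symbols only, but it was set with earlier results of these data known. It was met by 66 of the 51804 gene symbols of the deposited table. RNA was sequenced from kidney in 6 libraries. The 3 knockout libraries came from mice of genotype Ccnb1f/f;Cdh16-Cre, and the 3 control libraries came from Ccnb1f/f mice, so floxed Ccnb1 alleles are common to both groups. Cdh16 encodes kidney-specific cadherin, whose promoter drives Cre in tubular epithelium, while vessels, stroma and immune cells of the same tissue lack it. In which tubule segments Cre acted was not tested here, so deletion of Ccnb1 in proximal tubule cells is not shown. The study asked what deletion of cyclin B1, a partner of Cdk1 at entry into mitosis, does to the kidney. No label used here states age, sex or strain. The labels also do not say whether replicates came from different animals, and the p-values therefore speak only of library-to-library spread, part of which may be technical. The extraction text speaks of both mouse kidney and cultured cells, and the tissue label is kidney.

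In the proximal tubule, secretion of a drug takes a pair of steps. Organic anions enter from the blood through the exchangers OAT1 (Slc22a6) and OAT3 (Slc22a8), and organic cations enter through carriers such as OCT2 (Slc22a2). They leave into the urine through apical carriers such as MATE1 (Slc47a1) and ATP-driven pumps such as Mrp2, Mrp4 and Bcrp (Abcc2, Abcc4 and Abcg2). Several of these genes are known to differ between male and female mouse kidney, among them Slco1a1, which androgen raises.

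Upstream windows of Slc22a28 and Slc22a30 are shown because these anion carriers of chromosome 19 are close in sequence and were low in the same library. Each window holds the 250 bases before the RefSeq transcription start (GRCm38.p6). Capitals mark the bases that differ in a global alignment of the windows.
Slc22a28 (chr19:8131983-8132232, minus strand): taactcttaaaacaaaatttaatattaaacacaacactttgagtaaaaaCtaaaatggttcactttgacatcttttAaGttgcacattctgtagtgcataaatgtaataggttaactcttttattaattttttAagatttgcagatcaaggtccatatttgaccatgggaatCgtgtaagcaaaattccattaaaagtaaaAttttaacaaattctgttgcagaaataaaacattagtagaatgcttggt
Slc22a30 (chr19:8405106-8405355, minus strand): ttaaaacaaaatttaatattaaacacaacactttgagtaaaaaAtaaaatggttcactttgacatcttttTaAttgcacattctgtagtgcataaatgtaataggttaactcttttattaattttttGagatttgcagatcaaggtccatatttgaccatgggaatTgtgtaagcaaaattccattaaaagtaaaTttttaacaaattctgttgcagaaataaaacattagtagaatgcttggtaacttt

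The Slc22a28 and Slc22a30 windows differed at 6 of 244 aligned bases. Windows were at hand for 53 members. AGAACA, a hexamer of the androgen receptor element searched on both strands, was found in 11 of their 63 windows, or 17.5%, and in 16.1% of the 32851 windows of all genes. The Slc22a28 and Slc22a30 windows do not hold it.

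The kidney libraries contained these transporters at very different levels. By mean FPKM (fragments per kilobase of transcript, scaled to library size) over the 6 libraries, 11 members stood at 100 or more, 18 between 10 and 100, 14 between 1 and 10, and 23 below 1. Of the 66 members, 9 had no counts in any library and a further 9 had at most 14 counts in any one, and these 18 did not pass the filter on low counts. They include Abcb11, the bile salt export pump of liver, and Slco1b2, a hepatocyte carrier. The depth was 16061435 to 21261226 estimated counts per library. A count of 0 allows up to 3 counts, or 0.138 to 0.189 CPM (the count scaled to TMM-normalised library size), and this covers counting error only.

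**Figure D1:**
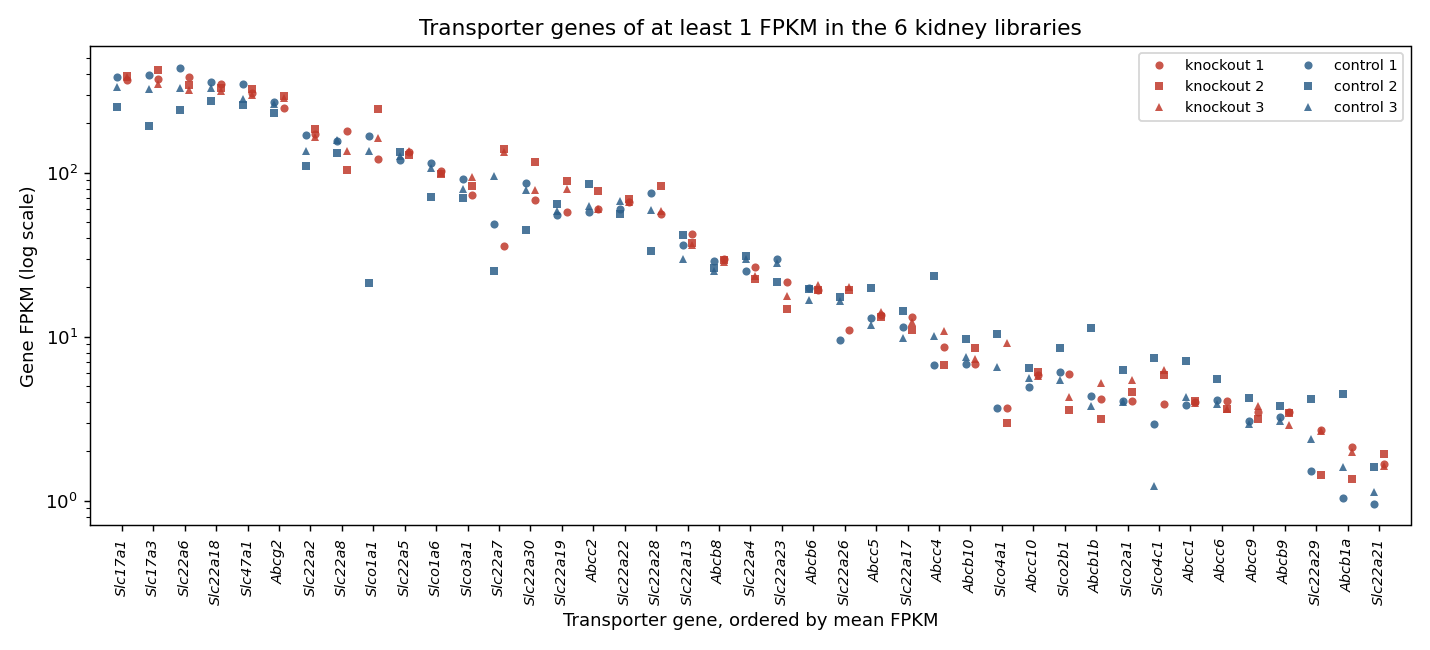
Gene FPKM (log axis) of each transporter with a mean of at least 1 FPKM, ordered by that mean. Each point is 1 library, blue for control and red for knockout, with a symbol per replicate. The most abundant genes have means above 100 FPKM. Control 2 (blue square) lies apart in Slco1a1, Abcc4 and Abcb1b, and in Slc22a7 it is the lowest of several low libraries.

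The most abundant members were Slc17a1 at 351 FPKM, Slc17a3 at 343, Slc22a6 at 341, Slc22a18 at 327 and Slc47a1 at 303 (means of 6 libraries). Slc17a1 and Slc17a3 encode apical sodium phosphate cotransporter relatives that move urate and organic anions, and Slc22a18 encodes an orphan carrier of the organic cation type. Further members above 100 FPKM were Abcg2 at 266, Slc22a2 at 157, Slc22a8 at 144, Slco1a1 at 143 and Slc22a5 at 130. Neighbours in this order were mostly not separable: the control SDs of Slc17a3, Slc22a6 and Slc17a1 were 103, 98.6 and 66.1 FPKM (n = 3 each), far more than the gaps between their means.

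Slc22a12, which encodes the urate reabsorber URAT1, was listed at 0 to 2 counts in every library. It is well known as an apical carrier of mouse proximal tubule, yet had 1, 1 and 0 counts in knockout and 2, 1 and 1 in control. All of its span (chromosome 19, 6535845 to 6543019, GRCm38) lies inside the span of Nrxn2 on the opposite strand, which was at 0 in all 6 libraries. Gatm, a creatine synthesis enzyme known to be abundant in proximal tubule, was likewise at only 9.21 to 22.6 CPM. These entries are given as listed and are not read as low expression, and why they are low was not tested.

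No transporter differed between the genotypes at the threshold. Among the 15017 genes tested with edgeR's quasi-likelihood test, 2 had an adjusted p under 0.05 (0.0133%, 0.00666% in each direction), and neither was a transporter. All 48 tested members had an adjusted p of 0.9995. DESeq2 called 0 members and 0.0812% of all genes it tested. An unadjusted p under 0.05 was found for 1 of 48 members (2.08%, lower in knockout), against 3.23% of all genes (1.35% higher and 1.88% lower). In CPM, the knockout and control libraries did not overlap for 1 member, Abcc6, or 2.08%, against 8.16% of all tested genes (4.08% in each direction). Of the 48, 30 stood higher and 18 lower in knockout, with a median log2 fold change of 0.045 (0.087 without control 1, 0.025 without knockout 2) beside a median of -0.005 over all genes. A fold change within 0.2 of 0 on the log2 scale was found for 25 members, and for 33 the 95% confidence interval lay inside 1 in either direction. The median absolute fold change was 0.182 for members and 0.116 for all tested genes, and the median SE was 0.185 and 0.172. Without control 2, 15 of the 48 estimates changed sign, and 2 to 4 did without any other library. In bulk tissue, fewer cells of a type and less RNA per cell cannot be told apart.

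**Figure D2:**
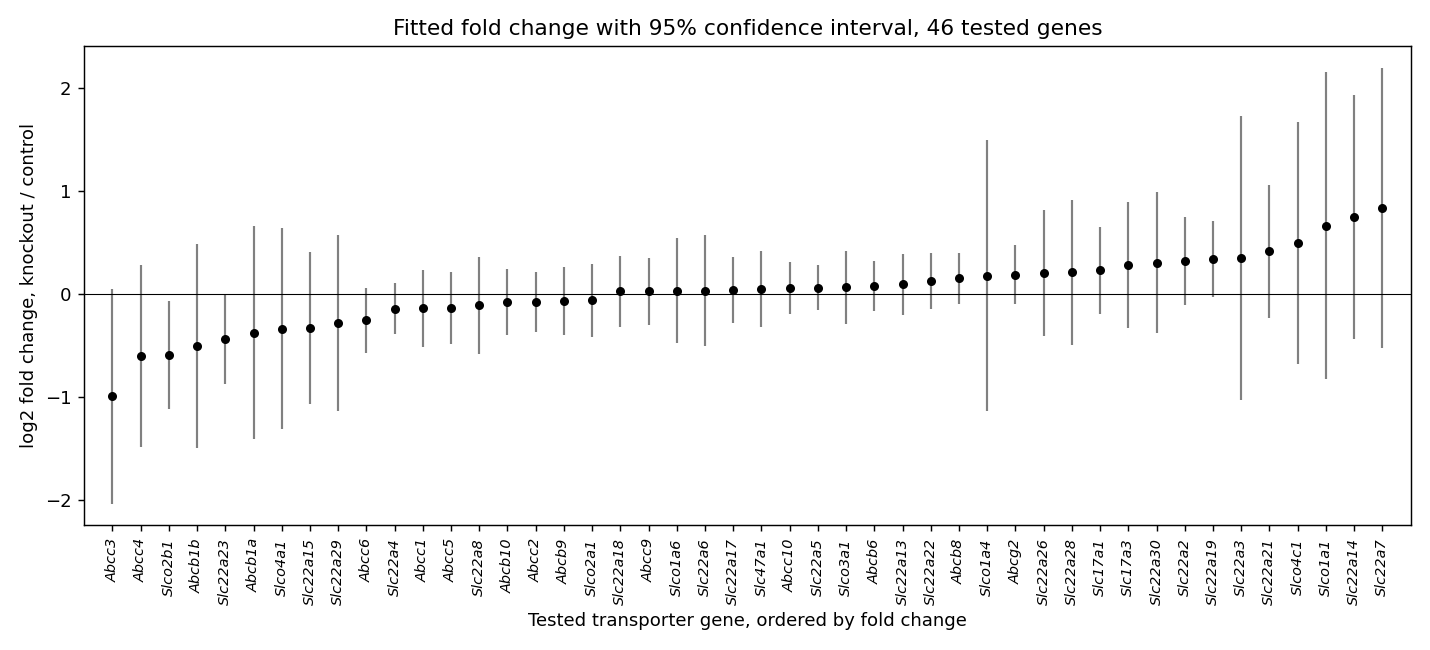
Fitted log2 fold change (knockout over control) of 46 tested transporter genes with its 95% confidence interval from edgeR, ordered by size. The interval includes 0 for all but Slco2b1 and, to 3 decimals, touches 0 for Slc22a23, and it is widest for Slc22a7, Slco1a1, Slc22a3 and Slco1a4.

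Ccnb1, the targeted gene, had 18, 15 and 11 counts in the knockout libraries and 11, 17 and 7 in the controls, and these few counts are no test of the labels. All 10 markers of proximal tubule were detected and summed to 19910 to 22670 CPM in knockout and 19140 to 24170 in control. Of these 4 stood higher and 6 lower, 0 called. Slc34a1, the phosphate cotransporter, was at a log2 fold change of -0.04 (SE 0.17). Aqp1, at -0.33 (SE 0.13), was the 1 marker with an unadjusted p under 0.05 in edgeR's test. Markers of the last proximal segment summed to 6991 to 8976 CPM in knockout and 6129 to 7552 in control. Of these 8, 6 stood higher and 2 lower, 0 called. Markers of the earlier segments summed to 3410 to 4088 and 3716 to 4051 CPM, with 2 higher and 6 lower, 0 called. Of 8 markers of other nephron segments 3 stood higher and 5 lower, 0 called. All 7 macrophage markers stood higher in knockout, 0 called, with sums of 142.3 to 183.3 CPM against 123.6 to 145.1 in control. Of 7 endothelial markers 1 stood higher and 6 lower, 0 called, with sums of 324.6 to 417.9 against 348.3 to 421.5 CPM. All 6 fibroblast and pericyte markers stood lower in knockout, with sums of 96.8 to 145.8 against 146.1 to 179.3 CPM, and 4 had an unadjusted p under 0.05 in edgeR's test, 0 called. Of 7 hepatocyte genes 5 were tested and 0 called, with sums of 169.8 to 414 CPM in knockout and 73.2 to 223 in control. Most of the spread in these sums was Ttr, the transthyretin gene, at 321, 116 and 207 CPM in knockout and 159, 0.304 and 94.4 in control, again lowest in control 2. Of the other hepatocyte genes, Serpina1a was at 37.7 to 75.6 CPM, Alb at 4.31 to 12.7 and Apoc3 at 2.46 to 8.81. Fgb and Apoa1 reached at most 2.65 and 0.811 CPM, and Ahsg was at 0 throughout. Of the adrenal list, Star was the 1 gene tested, at 2.73 to 4.76 CPM. Cyp11b1 and Cyp11b2 were at 0, and Cyp11a1, Cyp21a1 and Mc2r had at most 2 counts in any library. The part of these differences in any transporter value was not tested.

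Of the 4 members grouped here as basolateral anion carriers, 3 stood higher and 1 lower in knockout, 0 called, with a median log2 fold change of 0.27. The membrane side of each in mouse kidney was not tested. The most abundant was Slc22a6 (ENSMUSG00000024650, chromosome 19, 8617996 to 8628299). It stood at 1543, 1391 and 1264 CPM in knockout and at 1828, 913 and 1358 in control. The control libraries lay on both sides of the knockout range. Its log2 fold change was 0.03 (SE 0.23, 95% interval -0.51 to 0.57), and it was -0.19 without control 2. Slc22a8 (chromosome 19, 8591254 to 8611834) stood at 625, 365 and 461 CPM in knockout and at 564, 434 and 568 in control. Knockout 2 was lowest, and without it the fold change of -0.11 (SE 0.20) was 0.05.

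Slc22a7, which encodes OAT2, a carrier of organic anions and cyclic nucleotides, varied most of these 4. It stood at 71.6, 283 and 265 CPM in knockout and at 101, 47.4 and 197 in control. Knockout 1 and controls 1 and 2 were low and the other libraries high, so the split did not follow genotype. The log2 fold change was 0.84 (SE 0.59, interval -0.52 to 2.2), from 0.47 without control 2 to 1.47 without control 3. Slco4c1 encodes a basolateral carrier of digoxin and uremic toxins. Its levels were 19.2, 29.2 and 30.0 CPM in knockout against 14.9, 34.3 and 6.25 in control. Control 3 was lowest, 5.48-fold below the highest library, and the fold change of 0.50 (SE 0.51) was 0.09 without it and 1.31 without control 2.

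Of 8 apical anion and urate carriers 7 were tested, 5 higher and 2 lower, 0 called, with a median of 0.19. Abcg2 and Abcc2 had overlapping levels in both groups. Abcg2 stood at 508, 573 and 561 CPM in knockout and at 517, 417 and 508 in control (log2 fold change 0.19, SE 0.12, interval -0.10 to 0.47). Abcc2 stood at 412, 457 and 361 against 396, 462 and 437 CPM (-0.07, SE 0.13, interval -0.36 to 0.21). Slc17a1 was at 738 ± 27.0 CPM in knockout and 628 ± 158 in control (SD, n = 3 each). For Slc17a3 the levels were 919, 1037 and 793 CPM against 1000, 454 and 806. Control 2 was lowest in both genes, and without it the fold change of Slc17a3 went from 0.28 (SE 0.26) to 0.02. Without control 1 that fold change was 0.54. Slc22a19, which encodes OAT5, an exchanger of sulfated steroids, stood at 116, 182 and 155 CPM against 115, 121 and 121. It had the lowest unadjusted p among members that stood higher (0.0655 in edgeR's test). Its fold change of 0.34 (SE 0.16) was 0.18 without knockout 2 and 0.5 without knockout 1. Slc22a13, a carrier of nicotinate and urate, was at 0.10 (SE 0.13).

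Of 9 cation and carnitine carriers 7 were tested, 6 higher and 1 lower, 0 called, with a median of 0.09. Slc22a5, the carnitine transporter OCTN2, stood at 412, 397 and 408 CPM in knockout and 378, 387 and 401 in control, with the highest library only 1.09-fold above the lowest. Its log2 fold change was 0.06 (SE 0.10, interval -0.16 to 0.28). Slc47a1 stood at 799 ± 46.0 CPM in knockout and 771 ± 158 in control (SD, n = 3 each), with a fold change of 0.05 (SE 0.16).

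Slc22a2 had levels of 368, 398 and 345 CPM in knockout and 372, 219 and 296 in control. Controls 2 and 3 were the low libraries. The fold change of 0.32 (SE 0.19) was 0.15 without control 2 and 0.52 without control 1. Slc22a3, the extraneuronal monoamine transporter on chromosome 17 like Slc22a2, was rare at 0.312 FPKM. Slc22a4, the ergothioneine carrier, was at -0.14 (SE 0.11) and Slc22a21, a carnitine carrier next to Slc22a5, at 0.42 (SE 0.28). The Slc22a21 value was 0.23 without control 1 and 0.69 without control 2. Of the 50-base stretches of its main transcript, 23.8% also occur in the far more abundant Slc22a5. Slc22a21 stood at only 2.2 to 4.5 CPM, so reads divided between these genes could make its level less certain. Slc47a2 had 2 to 14 counts per library and was not tested.

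A cluster of Slc22a anion carriers on chromosome 19 differed among its own members. Slc22a30 (chromosome 19, 8335371 to 8405111) stood at 161, 278 and 178 CPM in knockout and 209, 99.9 and 189 in control. Slc22a28 (chromosome 19, 8062209 to 8131982) stood at 114, 168 and 114 against 156, 63.3 and 122 CPM. Both were highest in knockout 2 and lowest in control 2.

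Their log2 fold changes of 0.31 (SE 0.30) and 0.21 (SE 0.31) were 0.04 and -0.08 without control 2. Without control 1 both were 0.51. Slc22a29, in the same cluster, was instead highest in control 2, at 8.26 CPM, where the others had 3.09 to 5.45. Slc22a26 was low in knockout 1 and control 1, at 26.7 and 23.6 CPM, with the rest at 38.8 to 46.3. Of the 50-base stretches of the main Slc22a28 transcript, 53.3% also occur in a transcript of Slc22a30, and of those of Slc22a29 26.6% occur in Slc22a27. The authors' counting could divide such reads, so the levels of Slc22a28 and Slc22a30 are less certain than those of Slc22a6.

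Of the 13 further Slc22a members, this cluster included, 10 were tested, 7 higher and 3 lower, with a median of 0.08. Slc22a18 was at 0.03 (SE 0.15) and Slc22a22, a prostaglandin carrier, at 0.13 (SE 0.12). Slc22a23, an orphan carrier, stood at 123, 85.3 and 98.6 CPM in knockout and 154, 106 and 156 in control. Control 2 lay within the knockout range, and the fold change was -0.43 (SE 0.19, interval -0.87 to 0.00; unadjusted p = 0.05, edgeR adjusted p = 0.9995). Slc22a14 had the second largest positive estimate, 0.75 (SE 0.51), at only 0.182 to 0.757 CPM, near the counting limit, and it was 0.42 without control 1 and 1.4 without control 2. Its span covers that of the more abundant Slc22a13 on the same strand, at 1055 to 1564 counts. How reads were divided between these genes was not tested.

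Of 14 Slco members outside the basolateral list 7 were tested, 4 higher and 3 lower, with a median of 0.03. The family, which codes for organic anion transporting polypeptides, held the gene with the widest range among abundant members. Slco1a1 (ENSMUSG00000041698, chromosome 6, 141907282 to 141946962) stood at 416, 856 and 551 CPM in knockout and 599, 68.4 and 483 in control. Control 2 was 12.5-fold below knockout 2 and at 0.124 of the median of the other libraries. The log2 fold change of 0.66 (SE 0.65, interval -0.83 to 2.15) was 0.17 without control 2 and 1.1 without control 1. Its neighbour Slco1a6 was also lowest there, at 152 CPM against 227 to 287 in the others. So was Slco1a4, at 0.507 against 0.969 to 2.46 CPM, but these are only 10 counts against 21 to 40.

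Slco2b1, a broad carrier of steroid sulfates and drugs, was the member with an unadjusted p under 0.05 in edgeR's quasi-likelihood test (p = 0.0319, Benjamini-Hochberg adjusted p = 0.9995, and exact permutation p = 0.2). It stood at 24.3, 14.5 and 16.6 CPM in knockout and 26.0, 34.4 and 22.8 in control. Knockout 1 lay within the control range. The fold change of -0.59 (SE 0.23) was -0.40 without control 2 and -0.83 without knockout 1. The permutation test was two-sided, and 3 libraries against 3 can give no p below 0.1. Slco3a1, a prostaglandin and thyroid hormone carrier, was at 0.07 (SE 0.16), Slco2a1, the prostaglandin transporter, at -0.06 (SE 0.15) and Slco4a1, a thyroid hormone carrier, at -0.33 (SE 0.42). Without control 2 these 3 values were -0.07, 0.12 and -0.02, and that of Slco4a1 was -0.08 without knockout 2 and -0.94 without knockout 3. Those of Slco3a1 and Slco2a1 were 0.22 and -0.16 without control 1.

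Of 5 plasma membrane Abcb pumps 2 were tested, and both stood lower in knockout, 0 called. The drug pumps encoded by Abcb1a and Abcb1b, the mouse P-glycoproteins, were both highest in control 2. Abcb1b stood at 17.0, 11.4 and 18.7 CPM in knockout and 13.4, 39.9 and 13.4 in control. Abcb1a stood at 10.3, 6.88 and 9.41 against 5.40, 20.7 and 8.24 CPM. The fold changes of -0.50 (SE 0.43) and -0.37 (SE 0.45) turned to 0.23 and 0.38 without control 2. These genes are neighbours on chromosome 5, and 18.0% of the 50-base stretches of the main Abcb1b transcript also occur in Abcb1a. Abcb4, the phosphatidylcholine floppase beside them, had 3 to 10 counts per library.

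All 5 Abcb members of organelles were tested, 3 higher and 2 lower, with a median of 0.02. Abcb6, a porphyrin transporter, and Abcb8 and Abcb10 of mitochondria, together with the lysosomal peptide transporter Abcb9, had fold changes from -0.08 to 0.15, with SEs of at most 0.144. Their highest library was 1.21 to 1.33 times the lowest.

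Among the Abcc pumps, Abcc4 (Mrp4, an apical exporter of cyclic nucleotides, urate and drugs; chromosome 14, 118482692 to 118706219) stood at 49.6, 38.9 and 61.0 CPM in knockout and 40.2, 127 and 59.8 in control. Control 2 was at 2.56 times the median of the others. The fold change of -0.60 (SE 0.38) was 0.00 without control 2 and -0.9 without control 1. Abcc3, a basolateral exporter of glucuronides, stood at 2.55, 2.15 and 1.89 against 3.64, 7.40 and 1.99 CPM. It was again highest in control 2. Its fold change of -0.99 (SE 0.45), the largest negative estimate of the 48, was -0.36 without that library and -1.34 without control 3.

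Abcc6, an ATP-releasing exporter mutated in pseudoxanthoma elasticum, was at 19, 15.8 and 17.5 CPM in knockout and 19.2, 23.5 and 19.7 in control. The groups did not overlap in CPM, by a margin of 0.17 CPM. In FPKM they overlapped, at 4.06, 3.62 and 3.63 in knockout and 4.1, 5.55 and 3.9 in control. The fold change was -0.25 (SE 0.14, edgeR adjusted p = 0.9995, and exact two-sided permutation p = 0.1, the smallest that 3 against 3 allows). Of the 5 tested Abcc members outside the apical list and the sulfonylurea receptors, 1 stood higher and 4 lower, 0 called, with a median of -0.14. Abcc1, Abcc5 and Abcc10, broad exporters of conjugates and nucleotides, had fold changes of -0.14 (SE 0.16), -0.14 (SE 0.15) and 0.06 (SE 0.11). The first 2 of these were both 0.05 without control 2. Abcc1 was at -0.26 without control 1 and Abcc5 at -0.26 without control 3. Of the sulfonylurea receptors, Abcc9 was at 0.03 (SE 0.14) and Abcc8 had 2 to 11 counts per library.

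Control 2 was the highest of the 6 libraries for 19 and the lowest for 17 of the 48 tested members, or 39.6% and 35.4%, where it was highest for 23.8% and lowest for 22.8% of all tested genes. It lay more than 1.5-fold below the median of the other libraries in 10 members (20.8%, against 5.85% of all tested genes) and more than 1.5-fold above it in 9 (18.8%, against 9.38%). In the 5 other libraries, 1 to 8 members lay that far below and 1 to 5 that far above. These were 2.08% to 16.7% below, against 5.23% to 7.38% of all tested genes, and 2.08% to 10.4% above, against 3.78% to 5.43%. Control 1 had the largest of these shares below (16.7%, against 6.58%) and knockout 2 the largest above (10.4%, against 3.78%). A member share larger than that of all genes was therefore not confined to control 2. The median coefficient of variation of the members was 21.1% in control and 9.94% in knockout, and over all genes it was 14.8% and 12.0%. These are descriptions of libraries, with no test.

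**Figure D3:**
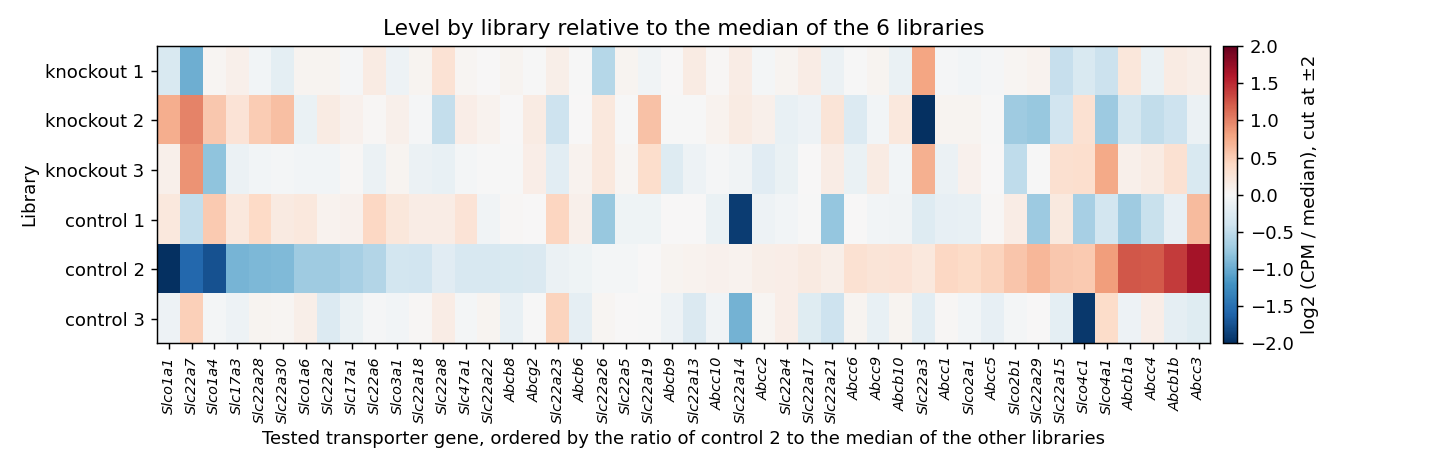
Level of 46 tested transporter genes in each library as log2 of CPM over the median of the 6 libraries (blue lower, red higher, colour cut at 2 in either direction), with genes ordered by the ratio of control 2 to the other libraries. The control 2 row runs from dark blue at Slco1a1 to dark red at Abcc3, while the other rows are mostly pale apart from single genes such as Slc22a3 in knockout 2, Slc22a14 in control 1 and Slco4c1 in control 3.

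Kidney genes were listed as androgen-responsive or male-higher, but the list is of mixed direction, since Prlr is higher in female kidney. Among the 13 tested genes of this list, control 2 was the lowest of the 6 libraries in 9. It was lowest for 22.8% of all tested genes. It was the lowest control for Kap and stood above the median of the other libraries for Prlr, Cyp2a4 and Ugt8a, at 3.72, 1.16 and 1.06 times that median. Odc1, the androgen-induced ornithine decarboxylase, stood at 299 CPM there and at 711 to 1522 elsewhere. Cndp2 was at 416 against 1043 to 2391 and Acsm3 at 134 against 957 to 1620 CPM, both being genes higher in male kidney. Prlr, the prolactin receptor, stood at 94.7 CPM in control 2 but at 95 in knockout 1 as well, and at 15.4 to 38.3 in the rest.

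Kap, an androgen-regulated protein gene, had no counts in knockout and 16430, 8727 and 16610 CPM in control. It was the 1 gene of the whole table called lower in knockout (edgeR adjusted p = 0.00105). The 0 is given as listed and is not read as absent expression, and why it is 0 was not tested. Of the 12 other tested genes of this list 0 were called, with log2 fold changes of 0.62 (SE 0.66) for Acsm3, 0.26 (SE 0.53) for Odc1, -0.46 (SE 0.52) for Cndp2 and 0.26 (SE 0.71) for Prlr. The part of these differences in the transporter values of control 2 was not tested. These 4 genes, and Ttr, Cyp2a4, Ugt8a, Slc22a26, Slc22a28, Slc22a29, Slc15a2 and Gatm, were chosen after their values were seen. So were Aqp1, Serpina1a, Apoc3, Fgb, Apoa1, Star, Cyp11a1, Cyp21a1 and Mc2r. The same holds for the further members named only to fill out a role group, such as Slc22a3, Slco1a4, Slco4a1 and the organelle Abcb genes.

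**Figure D4:**
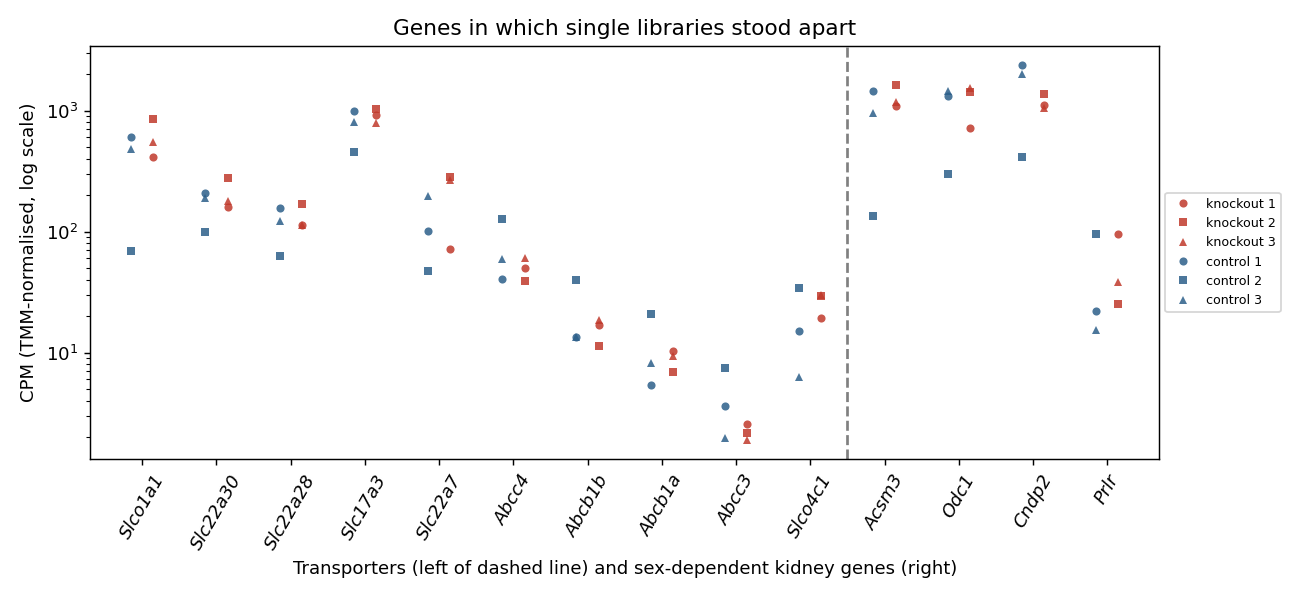
CPM (TMM-normalised, log axis) of 10 transporter genes, left of the dashed line, and of 4 sex-dependent kidney genes, right of it. Each point is 1 library, blue for control and red for knockout, with a symbol per replicate. The blue square, control 2, is lowest in Slco1a1, Slc22a30, Slc22a28, Slc17a3, Slc22a7, Acsm3, Odc1 and Cndp2 and highest in Abcc4, Abcb1b, Abcb1a, Abcc3 and Slco4c1.

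Genes that hold transporters at the membrane or control their transcription were not called either. All 5 scaffold genes of the brush border passed the filter, 2 higher and 3 lower, 0 called. Pdzk1, the PDZ protein that tethers apical anion carriers, was at 0.16 (SE 0.14), Slc9a3r1 at -0.04 (SE 0.14) and the membrane linker Ezr at -0.13 (SE 0.12). Of 18 transcription factors and nuclear receptors, 16 were tested, with 9 higher, 7 lower and a median of 0.02. Hnf4a, a regulator of proximal tubule genes, was at 0.03 (SE 0.17). Nr1h4, the bile acid receptor FXR, stood at 152, 175 and 205 CPM in knockout and 122, 137 and 145 in control (0.40, SE 0.14; unadjusted p = 0.0186, edgeR adjusted p = 0.9995).

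Of 25 other carriers of anions, urate, bile acids, nucleosides and peptides, 23 were tested, with 11 higher, 12 lower, 0 called and a median of -0.02. Slc13a3, which returns the dicarboxylates that OAT1 and OAT3 exchange, was at -0.11 (SE 0.16), the lactate and urate-linked Slc5a12 at 0.08 (SE 0.32) and Slc16a9 at 0.07 (SE 0.18). Slc15a2, the renal peptide transporter PEPT2, was the 1 carrier of this list with an unadjusted p under 0.05. It stood at 92.8, 84.8 and 101 CPM in knockout and 72.7, 69.6 and 73.2 in control, so the groups did not overlap. Its fold change of 0.37 (SE 0.10, edgeR adjusted p = 0.9995) was -0.04 on the FPKM scale with limma.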

How the data were processed

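RNA-seq of 6 mouse kidney libraries was analysed from 1 table. The authors deposited estimated counts, not normalized, and FPKM values for 128603 transcripts. Tools listed without roles in the submitters' processing notes are HISAT2 2.0.1 and Cuffdiff 2.2.1, with cutadapt 1.9.1, FastQC 0.10.1 and bcl2fastq 2.17.1.14, on GRCm38. The program behind the estimated counts, and its use of strand, are not stated by any label. Transcript values were added up within each symbol, 97 of which cover more than 1 gene ID, and rounded to whole numbers. The test was edgeR 4.0.16 (R 4.3.3): quasi-likelihood, TMM normalization, the default expression filter, group as the only term, Benjamini-Hochberg adjustment over 15017 genes, two-sided, threshold 0.05. Standard errors were derived from the fold change and F. The edgeR test was also run on simulated counts with the same dispersion for every gene and no library set apart. That run does not show how it performs on these data. CPM values are TMM-normalised. FPKM was summed over the transcripts of a gene and used for levels between genes.

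Groups came from the sample titles. Genes named were all called members, the 6 of lowest p per direction, the 15 most abundant, 18 known from renal pharmacology, members of at least 1 FPKM with 1 library more than 3-fold from the median of the others, and up to 3 genes of other lists. Members and lists were chosen with earlier results of these data known. Alternatives were DESeq2 1.42.0, relative log expression factors, no filter, the replicate number as a block, sums per Ensembl ID, limma 3.58.1 on log2(FPKM + 1) and log2(FPKM + 0.1), and each library left out. Promoter windows are RefSeq's (GRCm38.p6), and shared stretches come from GENCODE M21 transcripts. A few genes that the naming rule covers are not reported here by name, and the figures leave them out, while counts and medians include them.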

Additional observations from a re-analysis of the deposited data

How the results depend on the processing

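No member was called under any of the 7 other settings or when any 1 library was left out. Genes called over the whole table numbered 2, but 5 without a filter, 15 with DESeq2, 1 with limma on log2(FPKM + 1) and 1 on log2(FPKM + 0.1), and from 1 (without knockout 3, control 1 or control 3) to 6 (without knockout 1) with a library left out. The members' median log2 fold change, 0.045, was 0.038 to 0.066 under the 7 other settings and 0.025 (without knockout 2) to 0.087 (without control 1) with a library left out. Of 318 values of named genes under other settings 2 changed direction, both Slc15a2, at -0.04 with either limma fit; the cause was not tested. Of 276 values with a library left out, 34 changed direction, and the log2 fold changes then ranged as follows: Slc22a6 -0.19 to 0.3, Slc22a18 -0.11 to 0.14, Slc47a1 -0.08 to 0.22, Slc22a8 -0.34 to 0.05, Slco1a6 -0.21 to 0.2, Slco3a1 -0.07 to 0.22, Abcb1a -0.71 to 0.38, Abcb1b -0.77 to 0.23, Abcc2 -0.16 to 0.01, Slc34a1 -0.19 to 0.09, Slc9a3r1 -0.16 to 0.04. The others were Hnf4a -0.1 to 0.14, Slc13a3 -0.23 to 0.01, Slc5a12 -0.19 to 0.35, Slc16a9 -0.05 to 0.3, Odc1 -0.18 to 0.6, Prlr -0.47 to 1.49, Slc22a28 -0.08 to 0.51, Slc22a26 -0.01 to 0.42, Slc22a29 -0.56 to 0.12, Gatm -0.04 to 0.54. None of these genes was called.

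Replicates share numbers in the labels, but same-numbered libraries deviated together with correlations of 0.09, -0.091 and 0.116, so the numbers were not taken as pairs. With the replicate number as a block, 2 genes and 0 members were called and the members' median was 0.066. With 3 libraries a group, differences that lie inside the intervals given are not shown to be absent.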

Other observations

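Within several members the authors' estimated counts were divided among transcripts unevenly between libraries. For Slc22a30, the transcript ENSMUST00000120540 held 41.2% of the counts in control 2 and 20.8% to 30.3% in the other libraries. For Slc17a3, the transcript ENSMUST00000039721 held 12.9% in knockout 3 and 22.2% to 25.0% elsewhere. Slc17a1 was steady, with 65.1% to 70.3% of its counts in ENSMUST00000110413 in all 6 libraries. In Abcc4, a second transcript took part of the counts in knockout 1, where the main one held 79.8%, against 100% in each of the others. Abcc3, at 2 to 7 CPM, was assigned wholly to ENSMUST00000021231 in knockout 1 and not at all in knockout 2 or control 2. In the other libraries that transcript held 20.2% to 77.8%.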
